A study of Mus musculus with 12 samples.

Results

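Tumours grown from mT3-2D cells under the skin of SCID mice were compared with the same cells in culture. The comparison used 5 SCID tumours and 2 samples of the cultured line, which are 7 of the 12 samples of the study, and all 750 genes of a NanoString immune panel. Samples were taken into each group by the column names of the authors' log2 table. The other 5 samples were mT3-2D tumours from WT hosts, labelled immunocompetent, and they entered no value of the contrast. mT3-2D is a mouse pancreatic cancer line of the KPC model. SCID mice, labelled immunodeficient, carry a defect in the repair step that assembles antigen receptor genes, and so make no mature T or B cells while keeping macrophages, neutrophils, dendritic cells and natural killer (NK) cells. Strain, sex, age, number of injected cells and time of growth were not given in the labels. No treatment was named for any group. The line is 1 line, and a subcutaneous tumour is not in the pancreas. SCID tumours 1 and 2 share a number in their titles, as do tumours 3 and 4, and no label assigns a tumour to an animal of its own, so a p-value here covers only the scatter among these RNA samples.

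A carcinoma line in culture is made of tumour cells alone, whereas a tumour in a host also holds fibroblasts, which lay down fibrillar collagen, endothelial cells, which line vessels, and leukocytes drawn from blood. Macrophages and dendritic cells take up debris through Fc and scavenger receptors, make the first component of complement, and show peptides on major histocompatibility complex (MHC) class II molecules. A gene absent from the cultured cells and present in the tumour can thus be read as carried by the host, or switched on in the tumour cells by the host. These sources cannot be told apart in bulk RNA, nor can more cells of a type be told apart from more RNA per cell.

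The values were log2 normalized probe counts, that is, counts of a barcoded probe per gene, times 1 factor per sample set by the authors. The recovered totals were 463239 and 469812 counts in the line and 479085 to 536816 in the SCID tumours. A background level was taken as 39 counts, the 95th percentile in the line of the 42 genes listed for T or B cells, times each sample's factor. Of these genes, 1 of the T cell list and 1 of the B cell list gave signal in both line samples. The background level lay at a log2 value of 4.81 and 4.76 in the line and at 5.17 to 5.56 in the SCID tumours, so that a gene with no signal anywhere sits higher in a tumour on this scale. By that level 296 and 305 genes gave signal in the 2 line samples and 409 to 466 in the SCID tumours. The 2 line samples differed by 1.64 times the counting noise (chi-square per degree of freedom), against 18.5 to 84.5 for pairs of SCID tumours. The probe for clusterin, Clu, alone took 30.5% and 30.6% of counts in the line and 25.4% to 35.5% in the SCID tumours.

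The SCID tumours held RNA of fibroblast, vessel, macrophage and antigen presentation genes that the cultured line lacked, while the T cell and B cell markers read were at background. Of those markers, Cd4, Cd8a, Ms4a1 and Cd79a were at background in the WT tumours as well. Of 750 genes, 397 (52.9%) were higher in the SCID tumours and 20 (2.67%) were lower at an adjusted p under 0.05 (limma). In either direction 55.6% were called. All 5 tumours lay above both line samples for 455 genes (60.7%) and below both for 37 (4.93%). The count of higher genes depends on the scaling, and 97 of the 397 were at background in all 7 samples. When each sample was set to the same median over all genes, every difference moved by -2.001 on the log2 scale and the calls split into 101 higher and 489 lower. Scaling on 64 widely expressed genes moved the differences by -0.23 and gave 318 higher and 34 lower, and TMM scaling moved them by -0.74 and gave 207 higher and 124 lower. The same 101 genes (13.5%) were higher, and the same 20 lower, under the authors' scaling and the 3 others. Below, "under every scaling" means called the same way in these 4 fits, and other rises hold for the authors' scaling and can turn under the median scaling where they are smaller than that shift.

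**Figure D1:**
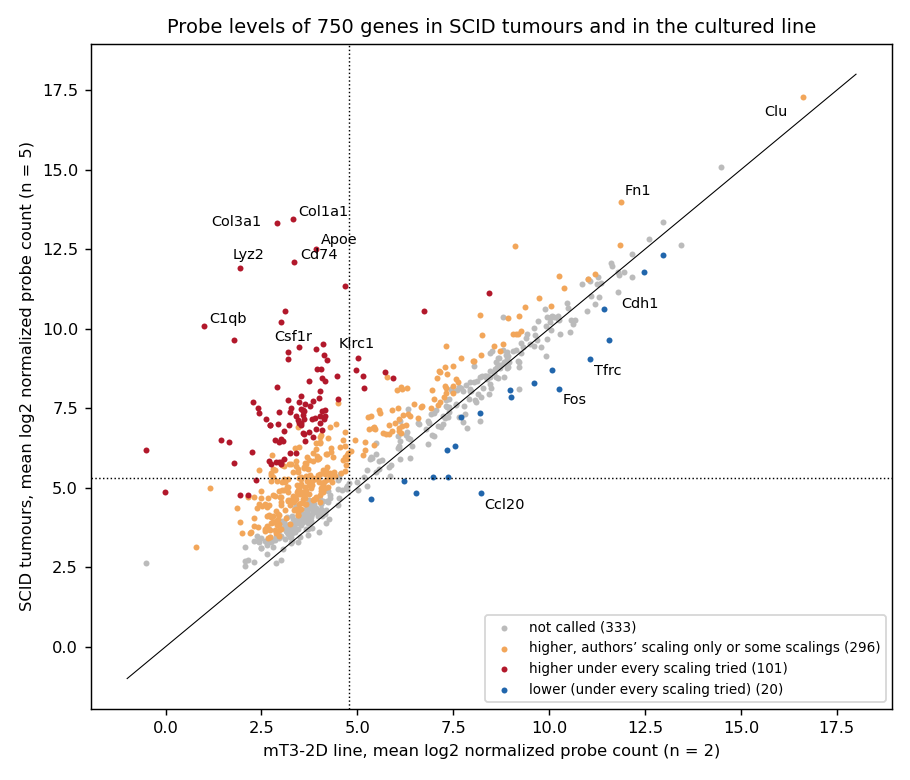
Mean log2 normalized probe count of each of 750 genes in the line (x axis, n = 2) against the SCID tumours (y axis, n = 5), coloured by call. The solid line marks equal values and the dotted lines the mean background level of each group. The 101 genes higher under every scaling lie mostly in the upper left, where the line is at background, and the 20 lower genes lie below the diagonal.

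Signal in all 5 SCID tumours with both line samples at background was found for 104 genes (13.9%), and for 32 with background raised to the 99th percentile of the T cell and B cell lists (174 counts). Blnk, a member of the B cell list, read 173 and 180 counts in the line, so that higher level sits at the signal of 1 gene. The 104 genes took 0.402% and 0.424% of all counts in the line. In the SCID tumours they took 7.5% to 17.5% (mean 12.2%, SD 3.85, n = 5). These shares do not depend on the scaling. The genes were chosen for signal in the tumours and background in the line, so a higher share in the tumours follows from the choice. The genes nearest the limit were Rrad, Casp1 and Itgax inside it, at 0.04, 0.07 and 0.07 above background on the log2 scale in their dimmest tumour, and Cd48, Il10ra, Tlr8 and Tnfrsf14 outside it, each at exactly the background level in its dimmest tumour. A further 276 genes gave signal in both line samples and every SCID tumour, and of these 92 rose and 13 fell. Folds against a line at background are given as "at least", from the tumours' mean over the background level of the line.

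Markers of each cell type were read first. Both line samples gave signal for the epithelial genes Epcam and Cdh1 and were at background for Ptprc, Csf1r, Pecam1, Col1a1 and the fibroblast gene Fap. Cd68 (5.12 and 5.25) and Cd14 (9.18 and 9.23) gave signal in the line as well. Cd68 lay near background there and was 7.71 to 8.59 in the SCID tumours, whereas Cd14 did not pass the test. In the SCID tumours, Ptprc, Csf1r, Pecam1, Cdh5, Kdr, Pdgfrb and Fap gave signal in 5 of 5. Cd4, Cd8a, Cd3e, Ms4a1 and Cd79a were at background in 5 of 5.

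**Figure D2:**
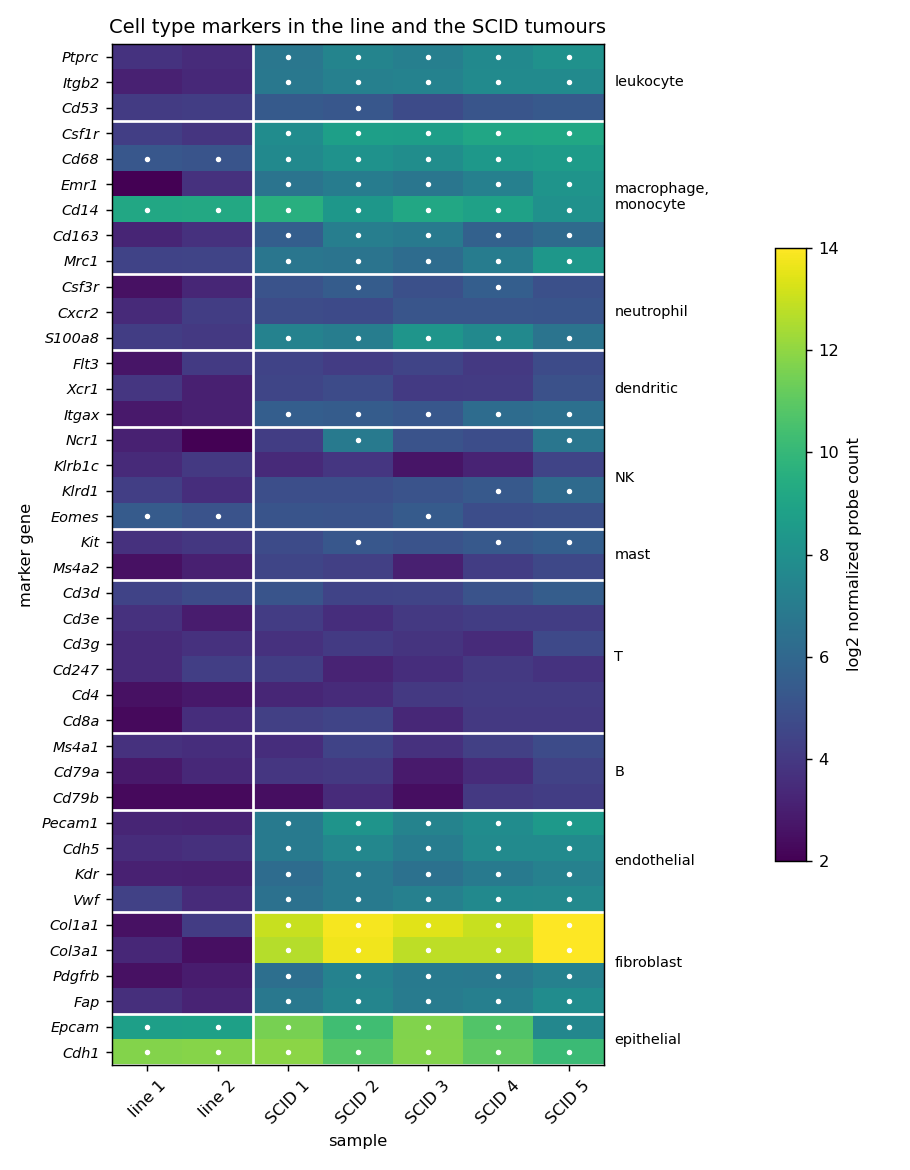
Log2 normalized probe count (colour) of cell type markers (rows) in 2 line samples and 5 SCID tumours (columns). White dots mark values above the background level of the sample. Leukocyte, macrophage, endothelial and fibroblast markers carry dots in all 5 tumours, apart from Cd53 with 1 dot, and T cell and B cell markers carry none.

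Fibroblast and matrix genes held the largest rises on the panel. Col3a1 and Col1a1, the chains of fibrillar collagen, went from background in culture to some of the brightest probes in the tumours. Of 13 members measured, 11 rose, 6 of them under every scaling, against 52.9% and 13.5% of all genes. The median log2 difference was 3.17 against 0.81 over all genes. Col1a1 read 2.52 and 4.12 in the line and 12.97, 13.84, 13.44, 13.00 and 13.97 in SCID tumours 1 to 5. The groups did not overlap, and the lowest tumour stood far above the higher line sample. The mean difference was 10.12 (SE 0.46, adjusted p = 2.7e-06), at least 405-fold. Col3a1 read 3.33 and 2.47 in the line and 12.65, 13.76, 12.78, 12.81 and 14.55 in the tumours, at least 369.8-fold higher (adjusted p = 4.1e-06). Tumour 5 was the highest for both collagens. Pdgfrb, the platelet-derived growth factor receptor of pericytes and fibroblasts, rose by 4.24 (SE 0.29), and Fap, a protease of activated fibroblasts, by 3.87 (SE 0.31).

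The matrix genes named next, which the tumour cells already made, rose less than Col1a1 and Col3a1. Fn1, fibronectin, was at 11.87 in both line samples and 13.76 to 14.41 in the tumours, 4.37-fold higher. Thbs1, thrombospondin, was 14.3-fold higher (log2 difference 3.84, SE 0.19), also under every scaling, and Col4a1, a basement membrane collagen, was 2.63-fold higher. The SCID tumours thus held fibrillar collagen RNA that the line lacked beside basement membrane and fibronectin RNA that it had. Spp1, osteopontin, was among the brightest probes of the line at 14.41 and 14.54 and read 14.62 to 15.66 in the tumours, a difference of 0.59 that did not pass (adjusted p = 0.11). Thy1, which is listed with T cells but is also made by fibroblasts and endothelium, read 3.69 and 4.17 in the line and 8.92, 9.56, 9.28, 9.14 and 9.89 in the tumours, at least 23.9-fold higher. All 5 tumours lay above both line samples for Thy1 while Cd3e was at background in all of them.

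All 16 endothelial genes measured rose, against 52.9% of all genes, but 2 of the 16 were at background in all 7 samples. Under every scaling 11 were higher, against 13.5% of all genes, and the median log2 difference was 3.45. For 9 of the 16 the line was at background and all 5 tumours gave signal, against 13.9% of all genes. Pecam1, an adhesion molecule of endothelial junctions, read 3.22 and 3.17 in the line and 6.96, 8.22, 7.37, 7.83 and 8.44 in the tumours. Every tumour was above both line samples, tumour 1 the lowest and tumour 5 the highest (difference 4.57, SE 0.39, at least 7.90-fold, adjusted p = 4.6e-05). Eng, a co-receptor for transforming growth factor beta, rose by 4.42 (SE 0.21) with a narrow spread, from 7.14 to 7.70 across the 5 tumours. Kdr, the main receptor for vascular endothelial growth factor, Tie1, an endothelial receptor kinase, and Cdh5, the junction protein VE-cadherin, rose by 3.70, 3.83 and 3.82. Dll4, a Notch ligand of sprouting tip cells, rose by 3.52 (SE 0.47). Lyve1, a lymphatic vessel and macrophage marker, gave signal in 4 of 5 tumours. Angpt2 and Vcam1 already gave signal in the line and rose by 0.94 and 1.89, below the shift of the median scaling.

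Of the leukocyte lists, that of macrophages and monocytes held the most genes higher under every scaling. Of 25 measured, 23 rose, 16 of them under every scaling, against 52.9% and 13.5% of all genes. Of the 23, 1 was at background in all 7 samples. Signal in every SCID tumour with the line at background was found for 18 of the 25, against 13.9% of all genes. Lyz2, lysozyme of myeloid cells, read 1.84 and 2.06 in the line and 11.04, 12.37, 11.89, 11.96 and 12.20 in the tumours. It was at least 138-fold higher (difference 9.94, SE 0.34, adjusted p = 1.33e-06), with tumour 1 the lowest. Csf1r, the receptor for macrophage colony-stimulating factor, read 4.22 and 3.87 in the line and 7.83, 8.79, 8.73, 9.11 and 9.14 in the tumours, at least 15.3-fold higher. Tumour 1 was again the lowest and the groups did not overlap. Emr1, the gene of the F4/80 antigen, rose by 4.54 (SE 0.61), Itgam, the CD11b integrin chain, by 5.04 (SE 0.28), and Ccr2, the receptor that brings monocytes from blood, by 4.23 (SE 0.35).

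Arg1, arginase, a gene of alternative activation, rose by 4.62 (SE 0.56), and the scavenger receptors Mrc1 and Cd163 rose by 2.55 and 2.82 without holding under every scaling. Nos2, the inducible nitric oxide synthase of classical activation, was at background in all 7 samples. Cd14 read 8.05 to 9.58 in the tumours against 9.18 and 9.23 in the line and did not pass (difference -0.41, adjusted p = 0.406).

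All 7 Fc receptor genes and adaptors rose, 5 under every scaling, against 52.9% and 13.5% of all genes. Their median log2 difference was 3.82. Fcgr2b, the inhibitory receptor for IgG, read 4.16 and 4.06 in the line and 8.55, 9.61, 9.54, 9.69 and 10.20 in the tumours, at least 26.6-fold higher. The activating receptors Fcgr4 and Fcgr3 rose by 3.98 and 3.87, and Fcer1g, the signalling chain they share, by 3.82. Each tumour exceeded both line samples for all 4, as was so for 60.7% of all genes. The pan-leukocyte list rose in 15 of 15 members, 6 of them under every scaling, against 52.9% and 13.5% of all genes. Of the 15, however, 3 were at background in every sample. Ptprc, the CD45 phosphatase carried by all leukocytes, read 3.77 and 3.47 in the line and 6.76, 7.43, 7.16, 7.69 and 8.07 in the tumours, at least 6.22-fold higher. Itgb2, the shared chain of leukocyte integrins, rose by 4.13 (SE 0.28), and Lcp1, an actin-bundling protein, by 4.79 (SE 0.38).

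Among 29 complement genes, 14 rose, a share below the 52.9% of all genes, and 2 of the 14 were at background in all 7 samples. Under every scaling 9 were higher, and Masp1 fell. The rises were strongest at the first step of the classical pathway. C1qb, a chain of C1q made largely by macrophages, read -0.48 and 2.47 in the line and 9.25 to 10.84 in the tumours. C1qa read 1.10 and 2.47 in the line and 8.99 to 10.32 in the tumours. Both chains stood in the same order across the tumours, lowest in tumour 1 and highest in tumour 5, and they were at least 39.4-fold and 29.3-fold higher. Serping1, the inhibitor of the C1 proteases, rose by 5.04 (SE 0.31), and C3, the central component, by 3.72 (SE 0.27), from signal in the line to 13.2-fold more. Cfd, the alternative pathway protease that fat cells make in quantity, varied most, from 5.02 in tumour 1 to 9.84 in tumour 2, and was at background in tumour 1. The C1 proteases C1s1 and C1ra gave signal in both groups, and their differences of 1.15 and 0.97 did not pass (adjusted p = 0.117 and 0.0833). Masp1, a protease of the lectin pathway, went from 6.73 and 6.31 in the line to background in all 5 tumours.

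MHC class II presentation was the list with the largest median difference, 3.95, and took 0.0563% and 0.0613% of counts in the line against 1.41% to 3.45% in the SCID tumours. Of 11 genes, 9 rose, 6 under every scaling, against 52.9% and 13.5% of all genes. Cd74, the invariant chain that guides class II molecules, read 3.33 and 3.38 in the line and 11.72, 11.77, 11.99, 12.05 and 13.00 in the tumours, at least 160.1-fold higher (adjusted p = 1.33e-06). Tumour 5 stood 0.74 of the group's range apart from the other tumours. The antigen-binding chains H2-Ab1, H2-Aa and H2-Eb1 rose by 7.44, 6.67 and 6.07 (SE 0.37, 0.40 and 0.33). H2-Aa read 4.805 and 4.56 in the line and 10.64, 11.24, 11.24, 11.30 and 12.35 in the tumours, with no overlap. Ctss, the protease that trims the invariant chain, rose by 7.19 (SE 0.38). H2-DMa, a chain of the peptide exchange factor, rose by 3.95, and its partner genes H2-DMb2 and H2-DMb1 by 2.29 and 1.49. H2-DMb1 already gave signal in the line at 5.35 and 5.45. Ciita, the coactivator of class II genes, rose by 2.46 (SE 0.32) but gave signal in 1 of 5 tumours. H2-Ob, whose product restrains H2-DM mostly in B cells, read 5.27 and 5.43 in the line and 5.35 to 6.51 in the tumours and did not pass (difference 0.62, adjusted p = 0.147). Probes of near-identical copies such as H2-DMb1 and H2-DMb2 carry the names of the files, and binding of one probe to the other's RNA was not tested.

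Class II genes are known to share a promoter module in which an X box and, downstream, a Y box bind factors that recruit Ciita, and the promoters of 5 members are shown since 9 of the 11 genes rose. The other two were H2-Ob and H2-Ea-ps, which was at background in all 7 samples. The windows run from 250 bases before to 50 after the RefSeq start site (GRCm38.p6), and 7 of the 11 genes had at least 1. Capitals mark the Y box letters GATTGG and the X box letters ATGATGC, searched on both strands with no overlap between them and chosen after the windows were seen. The windows lie at chr17:34305617-34305916 (plus strand) for H2-Eb1, chr17:34287774-34288073 (minus strand) for H2-Aa, chr17:34152941-34153240 (plus strand) for H2-DMb1, chr17:34144999-34145298 (plus strand) for H2-DMb2 and chr17:34238655-34238954 (plus strand) for H2-Ob.
H2-Eb1: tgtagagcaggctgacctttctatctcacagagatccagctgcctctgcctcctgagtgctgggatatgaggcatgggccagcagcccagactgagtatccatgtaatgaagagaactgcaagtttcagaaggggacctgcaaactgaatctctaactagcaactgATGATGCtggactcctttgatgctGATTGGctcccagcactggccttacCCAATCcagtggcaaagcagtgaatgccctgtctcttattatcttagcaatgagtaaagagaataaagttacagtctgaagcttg
H2-Aa: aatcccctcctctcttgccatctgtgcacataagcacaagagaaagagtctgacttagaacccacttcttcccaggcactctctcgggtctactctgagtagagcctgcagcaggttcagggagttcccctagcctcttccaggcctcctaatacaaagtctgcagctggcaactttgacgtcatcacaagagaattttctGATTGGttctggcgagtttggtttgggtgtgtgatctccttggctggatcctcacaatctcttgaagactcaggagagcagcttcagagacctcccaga
H2-DMb1: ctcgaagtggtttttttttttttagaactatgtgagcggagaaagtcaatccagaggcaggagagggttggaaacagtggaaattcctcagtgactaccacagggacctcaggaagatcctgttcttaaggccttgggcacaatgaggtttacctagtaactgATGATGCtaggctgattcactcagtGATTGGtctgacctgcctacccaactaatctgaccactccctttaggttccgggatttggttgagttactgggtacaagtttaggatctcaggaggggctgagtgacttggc
H2-DMb2: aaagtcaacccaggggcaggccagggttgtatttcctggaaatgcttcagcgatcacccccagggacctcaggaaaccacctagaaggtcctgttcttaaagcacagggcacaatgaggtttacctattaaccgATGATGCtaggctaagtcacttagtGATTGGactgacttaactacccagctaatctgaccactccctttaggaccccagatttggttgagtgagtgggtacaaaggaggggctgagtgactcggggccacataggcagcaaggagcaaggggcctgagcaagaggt
H2-Ob: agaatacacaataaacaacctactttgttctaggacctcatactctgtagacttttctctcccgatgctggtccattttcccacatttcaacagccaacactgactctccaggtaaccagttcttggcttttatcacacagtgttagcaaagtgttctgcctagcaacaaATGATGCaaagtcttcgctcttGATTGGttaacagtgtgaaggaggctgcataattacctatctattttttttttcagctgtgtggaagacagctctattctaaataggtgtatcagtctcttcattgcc

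The Y box letters were in 16.1% of 32851 RefSeq promoter windows, the X box letters in 2.46% and both in 0.341%. Both were in the windows of H2-Eb1, H2-DMb1, H2-DMb2 and H2-Ob, in the order X then Y. In H2-Eb1 the X box letters began at base -84 and the Y box letters at base -60 from the start site, with the reverse of the Y box letters again at base -35. They began at -87 and -62 in H2-DMb1, at -116 and -91 in H2-DMb2, and at -80 and -58 in H2-Ob. H2-Aa held the Y box letters at base -49 and not the X box letters as written. Of the other windows, that of Ctss and the first of H2-DMa held neither set of letters, and the second window of H2-DMa held the Y box letters at base -199. Genes that rose thus include some with and some without the letters, and H2-Ob, which did not pass, held both. A match describes the window and shows no binding.

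Chemokines that act on myeloid cells rose in 12 of 20 cases, a share near the 52.9% of all genes, and 1, Cxcl5, fell. Of the 12, 2 were at background in all 7 samples. Under every scaling 6 of the 20 were higher, against 13.5% of all genes. The list took 0.579% and 0.574% of counts in the line and 0.411% to 0.704% in the SCID tumours. Ccl8, a monocyte attractant, read 3.33 and 3.06 in the line and 8.21, 9.70, 9.02, 8.55 and 9.78 in the tumours, at least 19.3-fold higher (adjusted p = 2.54e-05). Ccl12, Ccl9 and Ccl6, further ligands for monocyte receptors, rose by 4.77, 4.05 and 3.87, and Ccl11, the eosinophil attractant eotaxin, by 3.01. None of the 5 tumours overlapped the line for these, and all 5 lay above both line samples for 60.7% of all genes. Ccl2, the best known monocyte attractant, already read 7.81 and 7.93 in the line and 5.94 to 8.49 in the tumours, and did not pass (adjusted p = 0.185). Csf1, the growth factor for macrophages, gave signal in both groups with a difference of 0.57 that did not pass (adjusted p = 0.244). Of the risen chemokines named here, Ccl8, Ccl12, Ccl6 and Ccl11 were at background in the line, and Ccl9 was just above it at 5.07 and 4.97.

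Of 18 lymphocyte-attracting and homeostatic chemokines, 11 rose, a share near the 52.9% of all genes. Of the 11, 4 were at background in all 7 samples. Under every scaling 3 of the 18 were higher, against 13.5% of all genes. Cxcl14, made by stroma and epithelium, read 2.98 and 3.997 in the line and 8.98, 9.35, 8.38, 9.94 and 10.46 in the tumours, at least 24.9-fold higher. Ccl21a, the lymphatic and stromal ligand of Ccr7, spanned 6.94 to 10.19 among the tumours, the widest SD (1.28) of the 104 genes that gave signal only in tumours. Cxcl12, the stromal ligand of Cxcr4, rose by 3.17 (SE 0.61), from 6.54 in tumour 1 to 8.79 in tumour 2. Cxcl9, a ligand of Cxcr3 that interferon gamma induces, passed the test with all 7 samples at background. Ccl20, the ligand of Ccr6, fell, as given with the other falls.

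Genes listed for interleukin 1, interleukin 6 and tumour necrosis factor rose in 14 of 17 cases, against 52.9% of all genes, and 1 fell. The list holds more than cytokines, with the receptor gene Il1r1, the sensor gene Nlrp3 and the protease gene Casp1 among its members. Of the 14, 2 were at background in all 7 samples, and 2 held under every scaling, Il1b and Nlrp3. The list as a whole took a smaller share of counts in the tumours, at 1.24% and 1.26% in the line and 0.48% to 0.639% in the SCID tumours. Il1b, interleukin 1 beta, read 3.52 and 2.93 in the line and 6.70, 6.49, 6.205, 7.59 and 7.87 in the tumours, at least 4.56-fold higher. Nlrp3, the inflammasome sensor, gave signal in 1 of 5 tumours and its fitted difference of 4.87 rests on line values of 1 to 2 counts. Il6 was at background in all 7 samples. Among 21 Toll-like receptor genes 12 rose, 2 of them at background in all 7 samples, and 3 held under every scaling, shares near the 52.9% and 13.5% of all genes. Ly86, a myeloid co-receptor, rose by 5.41 (SE 0.51) and Tlr8 by 2.84 (SE 0.35). Tlr4, Ly96 and Irak1 gave signal in all 7 samples, and their differences of -0.33, 0.08 and 0.05 did not pass.

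Interferon-stimulated genes rose in 20 of 31 cases under the authors' scaling, against 52.9% of all genes, with 4 of the 20 at background in all 7 samples. Only 1 of the 31, Ifitm1, held under every scaling, a share below the 13.5% of all genes. The median difference of 0.93 was close to the 0.81 of all genes. Ifit3, Isg20 and Stat2 gave signal in both groups and did not pass. In the MHC class I list 10 of 16 genes rose and H2-Q10 fell. Of the 10, 3 were at background in all 7 samples and 1 held under every scaling, against 52.9% higher and 13.5% higher under every scaling over all genes. Psmb8, an immunoproteasome subunit, rose under every scaling, from 2.84 and 2.06 in the line to 6.40, 7.39, 7.33, 7.36 and 8.27. The class I heavy chains H2-K1 and H2-D1 read 8.07 to 10.24 in the line and did not pass in the tumours (differences -0.20 and 0.30, adjusted p = 0.483 and 0.283). Class I heavy chain RNA was thus present in the cultured cells, in contrast to the class II antigen-binding chains.

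**Figure D3:**
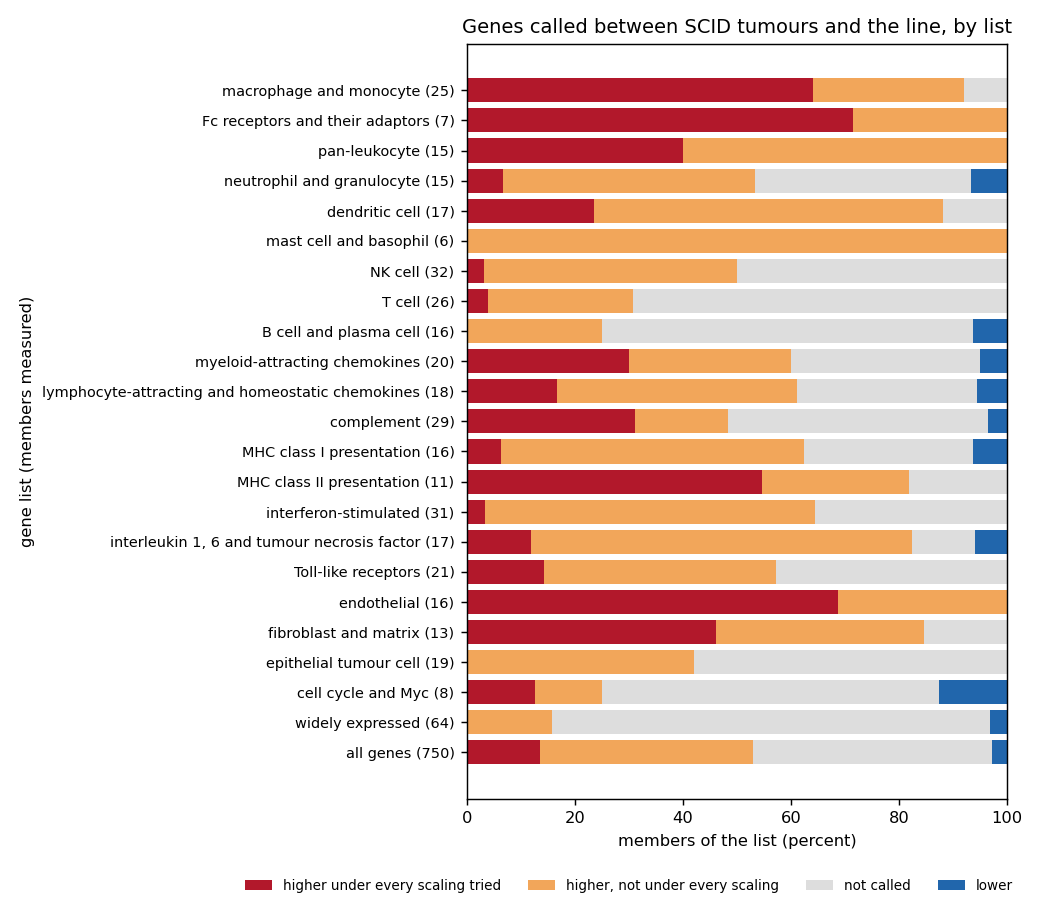
Share of each list's measured members (x axis, percent) called higher under every scaling, higher under the authors' scaling but not all, not called, or lower. Member counts are in parentheses. The Fc receptor, endothelial and macrophage lists hold the largest shares of genes higher under every scaling, and the bottom bar gives the same shares over all genes.

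Other myeloid groups were weaker. Of 15 neutrophil and granulocyte genes 8 rose, a share near the 52.9% of all genes, 3 of the 8 were at background in all 7 samples, and 1, S100a8, held under every scaling. S100a8, a calcium-binding protein abundant in neutrophils and monocytes, read 4.16 and 3.997 in the line and 7.34, 7.11, 8.27, 7.71 and 6.62 in the tumours, with tumour 3 the highest and tumour 5 the lowest. Csf3r, the receptor for granulocyte colony-stimulating factor, gave signal in 2 of 5 tumours, and Cxcr2 was at background in all 7 samples. Dendritic cell genes rose in 15 of 17 cases against 52.9% of all genes, with 4 of the 15 at background in all 7 samples and 4 higher under every scaling. Clec4n, a lectin of dendritic cells and macrophages, rose by 5.26 (SE 0.41), and Irf8, a transcription factor of the lineage, by 3.88 (SE 0.42). Flt3 and Xcr1, which mark conventional dendritic cells more narrowly, were at background in 5 of 5 tumours. Of 6 mast cell genes 6 rose and none was called under every scaling, against 52.9% and 13.5% of all genes. Of the 6, 2 were at background in all 7 samples. Cma1, a mast cell chymase, gave signal in every tumour, from 5.47 in tumour 1 to 7.22 in tumour 2. Ms4a2 was at background in all 7 samples, and Kit gave signal in 3 of 5 tumours.

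The NK cell list was mixed. Of 32 genes 16 rose, a share below the 52.9% of all genes, and 6 of these were at background in all 7 samples. Klrc1 alone held under every scaling, against 13.5% of all genes. Klrc1, an inhibitory lectin receptor of NK and T cells, read 3.84 and 4.56 in the line and 9.59, 9.84, 9.63, 8.56 and 7.53 in the tumours, at least 19.0-fold higher (difference 4.83, SE 0.62, adjusted p = 0.000337). Tumour 5, the highest for 73 of the 104 genes that gave signal only in tumours, was the lowest for Klrc1. Klrc2, its activating relative, was likewise lowest in tumour 5, with 7.68, 7.31, 7.53, 6.84 and 5.23, the last at background. Cross-binding between the probes of Klrc1 and Klrc2 was not tested. Klrd1, the partner chain of both, gave signal in 2 of 5 tumours, 4 and 5. Ncr1, the receptor that marks NK cells most narrowly in mice, read 4.20, 6.92, 5.09, 4.81 and 6.69 and gave signal in tumours 2 and 5. Prf1, perforin, gave signal in 2 of 5 tumours, and Gzmb and Klrb1c were at background in 5 of 5. In tumours 1 and 3 Klrc1 was high while Ncr1 and Klrd1 were at background, and its source was not tested.

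T cell and B cell genes were read for the state of the host, but several of them cannot separate the hosts. In the WT tumours Cd4 and Cd8a were also at background, with 18 to 29 and 20 to 33 counts. Ms4a1 and Cd79a were at background there as well, with 17 to 24 and 8 to 14 counts. Cd3e passed 39 counts in WT tumour 5 alone, at 53, whereas Cd3d read 43 to 104 counts in the WT tumours. Of 26 T cell genes, 8 passed as higher, a share below the 52.9% of all genes. Of the 8, 7 were at background in all 7 samples and the other was Thy1. Cd3e read 3.69 and 2.93 in the line and 4.11, 3.59, 3.97, 4.18 and 4.19 in the tumours, all below background. Cd3d was below background in 5 of 5 tumours as well. The median difference of the list was 0.48, and with values raised to background it was 0.54, the offset that the background level itself has between the groups. Of 16 B cell genes, 4 passed as higher, a share below the 52.9% of all genes, and all 4 were at background in every sample. Ms4a1, the CD20 gene of B cells, read 3.69 and 3.56 in the line and 3.57, 4.41, 3.69, 4.25 and 4.74 in the tumours, all below background. With 39 counts as the limit, T or B cell RNA below that level was not detectable here. Some genes named for lymphocytes gave signal in the cultured cells: Il5ra read 9.63 and 9.61, Tigit 7.54 and 7.55, and Blnk 6.95 and 6.97.

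**Figure D4:**
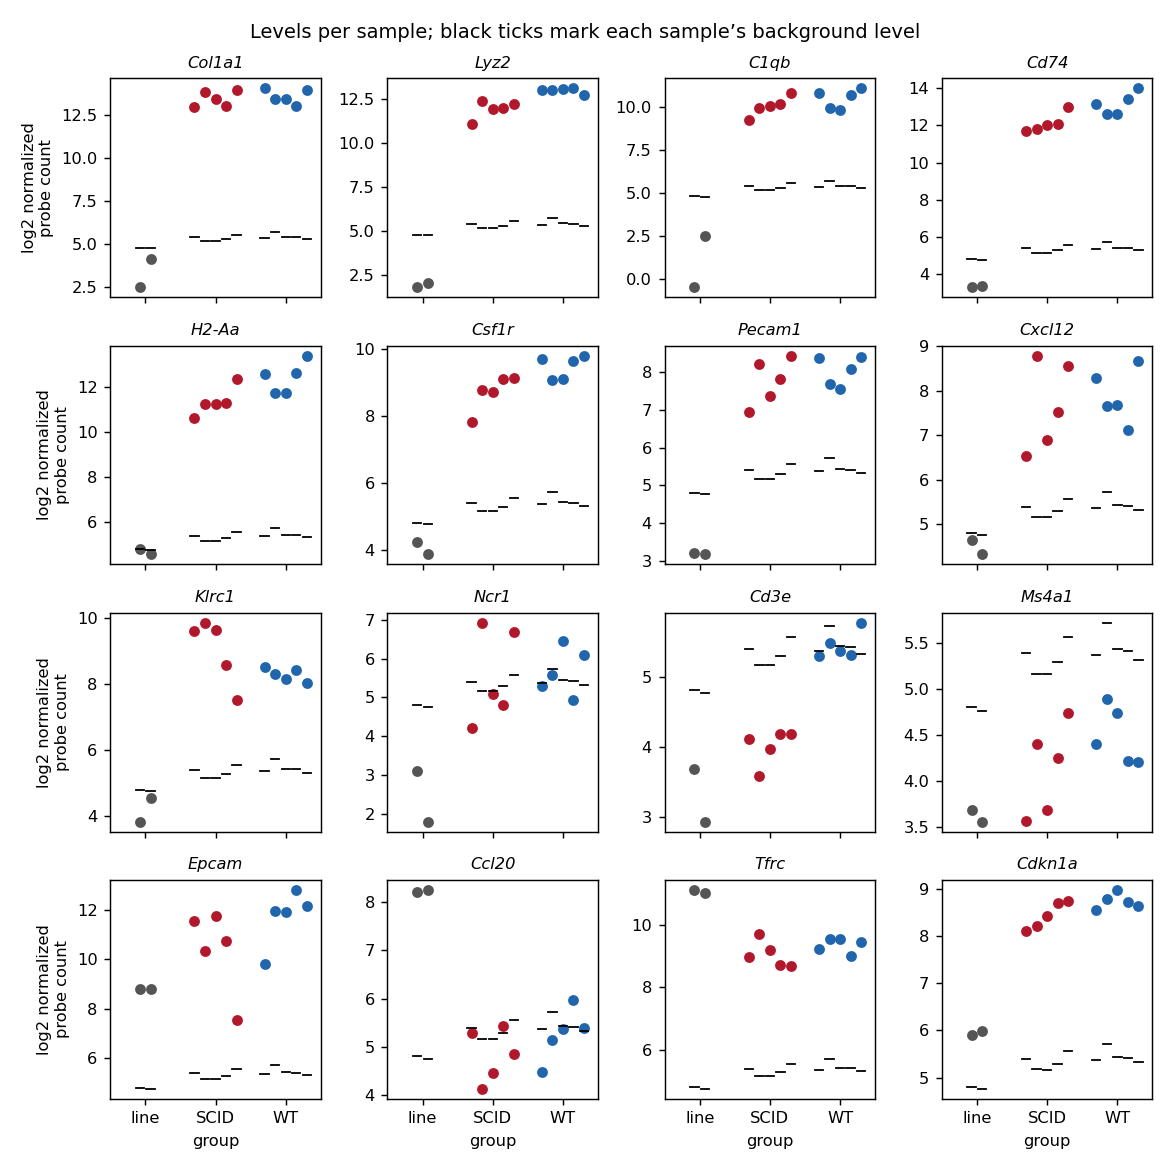
Log2 normalized probe count (y axis, its range differs between panels) of 16 genes in each sample of the line (grey), the SCID tumours (red) and the WT tumours (blue). Black ticks mark the background level of each sample. Matrix, macrophage, class II and endothelial genes lie above background in all tumours, Cd3e and Ms4a1 lie below it in the SCID tumours, and Ccl20 and Tfrc lie below the line in all 10 tumours. Ms4a1 also lies below background in the WT tumours, and Cd3e does so in all of them but WT tumour 5.

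The 20 genes that fell also did so under the 3 other scalings, each of which moves every difference down and so can only deepen a fall. Only 9 or 10 fell when line sample 1 or line sample 2 was left out. Ccl20 read 8.19 and 8.24 in the line and 5.28, 4.13, 4.47, 5.43 and 4.86 in the tumours, with signal in tumour 4 alone (difference -3.38, SE 0.36, adjusted p = 0.000139). Tfrc, the transferrin receptor, which brings iron into dividing cells, read 11.11 and 11.01 in the line and 8.98, 9.70, 9.20, 8.73 and 8.68 in the tumours, 3.996-fold lower. Slc7a11, the cystine transporter, fell by 2.02 (SE 0.31), and Fos, an immediate early transcription factor, by 2.14 (SE 0.49). For these 4 genes every tumour lay below both line samples, as was so for 4.93% of all genes. Il1rn, the antagonist of interleukin 1, fell by 1.91 (SE 0.46) and Cxcl5, a neutrophil attractant, by 1.37 (SE 0.40). Both were among the brighter immune probes of the culture and still gave signal in 5 of 5 tumours. Blnk, Il5ra and Tigit fell by 1.62, 1.33 and 1.24.

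Genes of the tumour cells were read for the share they kept. Of 19 epithelial genes, 8 rose, a share below the 52.9% of all genes. None was lower at an adjusted p under 0.05 or at an unadjusted one (limma), and none of the rises held under every scaling. Of the 8, Slc11a1 was at background in both line samples, at 13 and 19 counts, so its rise cannot be assigned to the tumour cells. Clu was 1.59-fold higher under the authors' scaling (difference 0.67, SE 0.23), and this turned to -1.33 and -0.07 under the median and TMM scalings. Cdh1, E-cadherin, read 11.76 and 11.82 in the line and 11.92, 10.83, 11.77, 11.07 and 10.20 in the tumours. Epcam, another epithelial adhesion protein, read 8.78 and 8.80 in the line and 11.52, 10.33, 11.74, 10.73 and 7.55 in the tumours, above the line in 4 of 5. Neither passed (adjusted p = 0.248 and 0.208), and tumour 5 was the lowest for both. Cdkn1a, the cell cycle inhibitor p21, was 5.68-fold higher under every scaling, at 5.89 and 5.98 in the line and 8.11, 8.22, 8.43, 8.72 and 8.75 in the tumours. Myc and Birc5 did not pass (differences -0.42 and -0.42).

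The 5 SCID tumours differed among themselves in a graded way. Over the 104 genes that gave signal only in tumours, tumour 5 was the highest for 73 and tumour 1 the lowest for 78, and the median SD was 0.51 on the log2 scale. Of 16 epithelial genes that gave signal in the line, tumour 1 was the highest for 10 and tumour 5 the lowest for 10. The summed epithelial signal did not follow that order, at 17.77, 17.11, 17.47, 17.56 and 17.65 in tumours 1 to 5. The summed macrophage signal was 9.78 and 9.83 in the line and 12.24, 13.11, 12.81, 13.00 and 13.20 in the tumours, each above the line. Tmem173, the gene of STING, varied least of the 104, with an SD of 0.07. Scale factors also differed, since 1 count was worth 1.08 units in tumour 1 and 1.21 in tumour 5 against 0.922 to 1.00 in the others, and their part in the order was not tested.

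**Figure D5:**
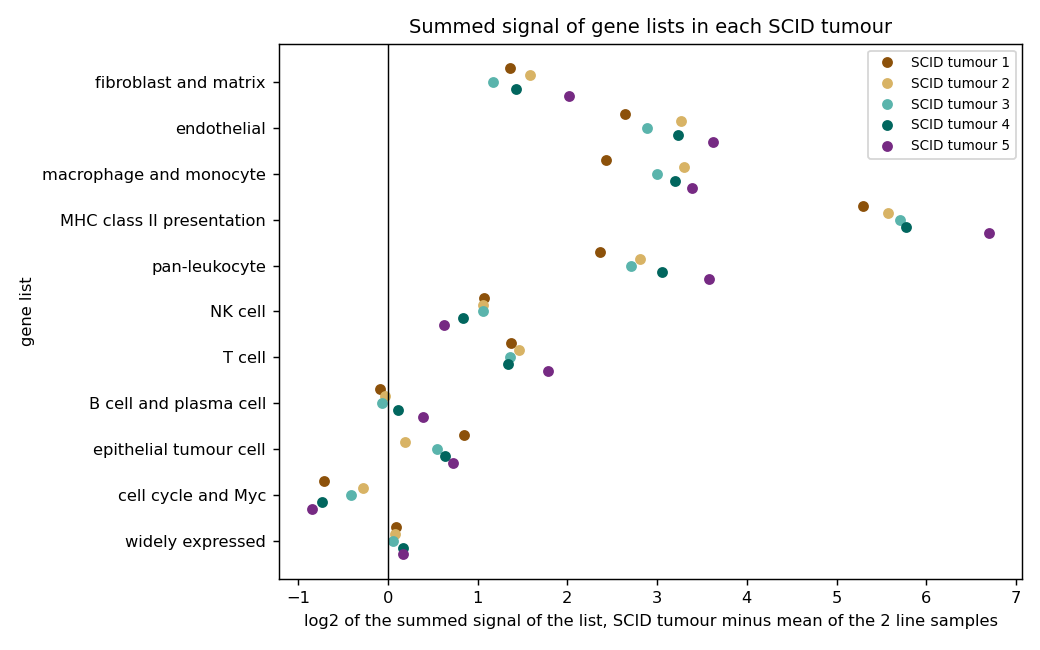
Log2 of the summed signal of each list in each SCID tumour minus that of the mean of the 2 line samples (x axis). Each point is 1 tumour and the vertical line marks no difference. Tumour 5 lies farthest right for the class II, endothelial and pan-leukocyte lists and farthest left for the NK cell list.

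The levels were set beside the WT tumours to place them, in 1 limma fit over all 3 groups. Over the panel 127 genes (16.9%) were lower in SCID than in WT tumours and 2 (0.267%), Lamp3 and Cd9, were higher. Lamp3 was at background in every tumour, with 11 to 22 counts in the SCID tumours and 6 to 15 in the WT tumours. Of the 203 genes that were higher than the line with signal in every SCID tumour, 36 were lower than in WT tumours and 0 were higher (4 at an unadjusted p under 0.05). Under the median scaling this became 14 lower and 20 higher. In the endothelial and the fibroblast list 0 of 16 and 0 of 13 genes were called in either direction, while 2 and 1 were lower at an unadjusted p under 0.05. Col1a1 differed by -0.18 (SE 0.36) and Pecam1 by -0.36 (SE 0.30). Class II genes were lower than in WT tumours in 6 of 11 cases, H2-Eb1 by -1.41 (SE 0.27, adjusted p = 0.00546), and macrophage genes in 5 of 25, Lyz2 by -1.06 (SE 0.24, adjusted p = 0.0134). In the T cell list 15 of 26 were lower. Of the 26, 1 gave signal in every SCID tumour, and the others were at background in at least 1 of them. Cd4 and Cd8a were at background in the WT tumours as well, so the count of 15 includes comparisons near background. Whether the lists differ from one another in their share of lower genes was not tested.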

How the data were processed

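Total RNA was measured with the Mouse PanCancer Immune panel on the nCounter system, per the labels, after column extraction. The authors deposited a table of log2 normalized values for 750 genes. They also deposited the same values as linear signal for 749 genes, whose log2 differs from the table by at most 5.4e-09. Normalization genes, software and background treatment are unstated in the labels and file headers. All values were whole multiples of 1 step per sample, within 0.02 counts, and division by the step gave the recovered counts.

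SCID tumours and line samples were compared with limma 3.58.1 in R 4.3.3 (lmFit, eBayes, two-sided) on the deposited log2 values, with no filter, pseudocount or covariate and 5 residual degrees of freedom. Benjamini-Hochberg adjustment ran over 750 genes. A fit over 3 groups, with WT tumours 2 and 3 averaged because their counts nearly agree, gave SCID against WT. In 20 simulations on 750 genes of SCID against line, 100 genes were changed by 1 on the log2 scale and 100 by 2. Of these, 60.7% and 93.4% were recovered, and 4.03% of calls were false. In the measured data 55.6% of genes were called, and 97 of the 397 higher ones were at background in all 7 samples. Whether the share of 4.03% holds for the measured calls was not tested.

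Members, 22 lists and the named genes were chosen with earlier results of these data known. Named were the 15 largest rises, the 10 largest falls, the 4 largest changes called in each list and a set of lineage genes, 108 in all after leaving out some genes that are not reported here; other genes in the text were chosen after their values were seen. Symbols are those of the files, with 736 of 750 current in RefSeq (GRCm38.p6), 8 synonyms and 6 unmatched. Promoter windows and motif shares come from RefSeq. Alternatives covered scaling, low values, pseudocount, variance model, table, pairing and leaving out each sample.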

Additional observations from a re-analysis of the deposited data

Results flagged for a closer look

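Among 108 named genes, 5 had 1 SCID tumour whose gap to the nearest other tumour was above 0.71 of the group's range (Dixon's limit for 5 samples), and chance gives about 1 such gene in 20. Cd74 stood at 13.00 in tumour 5, with the others between 11.72 and 12.05. Il5ra stood at 7.27 in tumour 4, with the others between 8.32 and 8.67, so the fall of this receptor gene was deepest there. Ms4a2, a mast cell gene, stood at 3.05 in tumour 3, with all 5 tumours at background. Plau, the urokinase gene, stood at 7.74 in tumour 1, with the others between 8.43 and 8.70. Rrad, a small GTPase gene, stood at 7.59 in tumour 5, with the others between 5.20 and 5.81.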

How the results depend on the processing

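The authors' scaling gave 397 genes higher and 20 lower. Scaling to the median gave 101 and 489, scaling on widely expressed genes 318 and 34, and TMM scaling 207 and 124, since each moves all differences by 1 constant per sample. Lists with most of their members higher numbered 15, and 4, 12 and 8 under these scalings. Leaving out 1 sample gave 277 to 392 higher, 9 to 25 lower and 7 to 17 lists, the low ends without line sample 1 or 2, where the lone line sample is assumed to vary like the tumours. The numbers 1 and 2 shared by line and tumours do not pair samples (r = 0.02 and 0.01 between deviations over genes), and the replicate block gave 280 higher, 16 lower and 9 lists. The 104 genes with signal only in tumours became 32 with background at its 99th percentile (174 counts, the level of Blnk in the line), 95 at its 75th, and 104 to 129 without 1 sample. Of the genes above the line in every SCID tumour, 36 were lower and 0 higher than in WT tumours (limma, 4 at an unadjusted p under 0.05), and 14 and 20 under median scaling. The planned count models were not run, because the recovered counts were not accepted as whole reads in 6 of 12 columns.

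Scaling to the median, which moves each by -2.001, turned these differences: Lcn2 to -0.06, Il1rl1 to -0.14, Kit to -0.60, Ms4a2 to -0.67, Il7r to -0.71, Cd4 to -0.88, Cd8a to -0.93, Cd22 to -0.67, Tnfrsf13b to -0.81, Psmb10 to -0.37, Zbp1 to -0.07, Slc11a1 to -0.15, Plau to -0.64, Cd44 to -0.83, Ccnd3 to -1.47, Cmah to -0.38, Rrad to -0.41, Elk1 to -0.84, Psen2 to -1.22, Flt3 to -1.02, Cd3e to -1.31, Ms4a1 to -1.49, Cd79a to -1.39, Epcam to -0.42, Cd9 to -1.78 and Clu to -1.33. TMM scaling turned Ccnd3 to -0.20, Cd3e to -0.05, Ms4a1 to -0.23, Cd79a to -0.13, Cd9 to -0.52 and Clu to -0.07, and widely expressed genes turned Cd9 to -0.01. Klrb1c, at background throughout, went from -0.19 to 0.54 with values raised to background, and to between -0.47 and 0.10 without 1 sample, 0.02 without SCID tumour 3.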

Other observations

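Of the 104 genes with signal only in tumours, 22 belonged to none of the 22 lists. Apoe, the lipid carrier apolipoprotein E, read 3.77 and 4.06 in the line and 11.92, 12.25, 12.39, 12.70 and 13.27 in SCID tumours 1 to 5, at least 212-fold higher (limma, adjusted p = 1.33e-06). The cholesterol exporters Abca1 and Abcg1 rose by 4.18 (SE 0.33) and 3.24 (SE 0.25), and the fatty acid and scavenger receptor Cd36 by 2.95 (SE 0.42). Each was higher under every scaling. The lectin scavenger receptor Colec12 rose by 5.11 (SE 0.33), F13a1, a clotting factor chain found in macrophages, by 4.25 (SE 0.48), and the matrix protease Mmp9 by 4.06 (SE 0.58). These genes were picked after their values were seen.

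Tgfb1, transforming growth factor beta 1, and Itga5, the fibronectin receptor chain, gave signal in the line and were 6.45-fold and 7.63-fold higher in the SCID tumours, under every scaling. Il11, a stromal cytokine, rose by 3.50 (SE 0.72) with signal in 4 of 5 tumours. Fas and Cxcr4 rose by 2.598 (SE 0.24) and 3.40 (SE 0.28) from background.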
